A study of Mus musculus with 4 samples.

Results

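The genes described here are 56 splicing factors and neuronal RNA-binding proteins, out of 24421 genes in the deposited tables. They were chosen by symbol alone: the SR proteins (Srsf, 11 genes), the heterogeneous nuclear ribonucleoproteins or hnRNPs (Hnrnp, 20 genes), and the families Celf (6), Elavl (4), Rbfox (3), Ptbp (3), Mbnl (3), Khdrbs (3), Nova (2) and Qk (1). The samples are 4 RNA-seq libraries from the brains of male mice aged 3 to 5 months, each made from 100 fluorescent cells picked by hand; the study concerns ERK signalling and Noonan syndrome. Libraries labelled excitatory, replicates 1 and 2, hold αCaMKII-positive cells, αCaMKII being a kinase abundant in glutamatergic forebrain neurons, and libraries labelled inhibitory, replicates 1 and 2, hold cells positive for vGAT, the vesicular GABA transporter. Per the labels, the mice came from αCaMKII-Cre and vGAT-IRES-Cre colonies kept by crosses to wild-type C57Bl/6J mice. The labels name no Noonan syndrome allele and no treatment for any library, and nothing in them tells whether replicates are separate animals. The p-values thus measure only how far these libraries spread, which may be technical.

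Pre-mRNA splicing is carried out by the spliceosome, and the proteins described here decide which exons it uses. SR proteins mostly bind exonic enhancers and promote exon inclusion, and many hnRNPs bind silencers and oppose it. Neurons add a layer of their own with the Rbfox, Nova, Elavl, Celf, Khdrbs and Mbnl proteins, and during neuronal differentiation Ptbp2 takes over from Ptbp1, a repressor of neuronal exons. Splicing itself was not measured here: each value is the RNA level of a gene, with no information on isoforms.

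Values are given as deposited, log2(normalized reads + 1), and a difference below is excitatory minus inhibitory on that scale, which understates the change of low genes. Over the 13619 genes tested, the median difference was 0.52, so the deposited values of most genes were higher in excitatory libraries. Median-of-ratios scaling, which divides each library by the median ratio of its genes to their typical level over libraries, brought that median to -0.01, and values after it are called scaled. Library depth, estimated from the spacing of the lowest values, was about 62000000, 63000000, 74200000 and 62200000 reads. Mbp, an oligodendrocyte gene, had the highest value in every library, and that value was 21.33 in all 4. The label genes gave a mixed check. Camk2a, which encodes αCaMKII, was 16.53 and 16.46 in excitatory and 15.60 and 15.66 in inhibitory libraries, while Slc32a1, which encodes vGAT, was listed at 0 in all 4 libraries. The libraries are therefore called by their labels throughout. Astrocyte and oligodendrocyte markers were high in every library, and the summed level of 12 microglia markers was 15.49 and 15.59 in excitatory against 16.93 and 16.64 in inhibitory libraries. In such pooled cells, fewer cells of a type and less RNA per cell cannot be told apart.

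The promoters of 3 of the 9 members that differed by more than 3 between the labels are shown, as examples of the start-site sequence of genes that differed strongly; they are not the 3 with the largest differences. They are RefSeq windows of the build GRCm38.p6, on the + strand, and lie before the annotated start of the gene. Those of Ptbp1 and Nova2 end at the base before that start. The window of Srsf6 ends at 162931507, short of the start at 162931528. Capitals mark matches to the motifs searched, on either strand. Srsf6 is at chr2:162931258-162931507, Ptbp1 at chr10:79854182-79854426 and Nova2 at chr7:18925638-18925887.
Srsf6: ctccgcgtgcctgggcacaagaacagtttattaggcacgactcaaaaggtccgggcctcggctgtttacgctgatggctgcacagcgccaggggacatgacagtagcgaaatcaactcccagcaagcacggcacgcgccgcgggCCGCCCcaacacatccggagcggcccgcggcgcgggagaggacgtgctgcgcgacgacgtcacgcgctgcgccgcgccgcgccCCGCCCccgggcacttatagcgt
Ptbp1: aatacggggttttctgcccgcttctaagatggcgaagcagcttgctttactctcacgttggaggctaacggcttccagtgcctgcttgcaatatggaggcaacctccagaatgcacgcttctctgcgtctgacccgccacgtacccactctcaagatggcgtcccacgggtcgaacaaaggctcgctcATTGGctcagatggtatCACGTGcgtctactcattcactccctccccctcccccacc
Nova2: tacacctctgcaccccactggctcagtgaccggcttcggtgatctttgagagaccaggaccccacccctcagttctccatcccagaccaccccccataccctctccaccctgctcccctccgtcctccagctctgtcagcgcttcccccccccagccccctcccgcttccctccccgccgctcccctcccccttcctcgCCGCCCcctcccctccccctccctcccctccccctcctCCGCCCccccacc
The windows of Srsf6 and Nova2 each held 2 matches to GGGCGG, the GC box bound by Sp1, all as the reverse complement. The window of Ptbp1 held 1 reverse match to CCAAT and 1 match to CACGTG, an E-box, and these did not overlap. RefSeq windows were matched to 49 of the 56 members. Only the first window listed for a gene was used, which need not be its main promoter. Celf3, for instance, has 7 windows listed. The windows used for Celf2 and Celf3, both with TATAAA, lie inside the annotated gene. GGGCGG occurred in 65.3% of these 49 windows of 250 bases and in 57.3% of the windows of 9873 tested genes, against 32.7% of all 32851 windows. CCAAT occurred in 44.9% of the members' windows and 36.0% of those of tested genes (33.8% of all). CCGGAAG, a site of ETS factors, which are targets of ERK, occurred in 12.2% and 12.8% (6.91% of all), and TATAAA in 14.3% and 6.44% (12.4% of all). CACGTG was found in 8.16% and 8.26% (6.02% of all), and TGACGTCA, the cyclic AMP response element, in 2.04% and 2.77% (1.55% of all). The palindromes bound by NRF1 and by BANP were in none of the members' windows, and in 1.45% and 0.76% of those of tested genes (0.782% and 0.39% of all). A match is a description of letters and not evidence of a bound site.

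All 56 members could be tested, since each reached a value of 1 in 2 or more libraries, and none was listed at 0 in all 4. At a limma adjusted p of 0.05 over all genes, 26 members were higher in excitatory libraries (all genes, 45.0%), 14 in inhibitory libraries (all genes, 26.8%), and 16 did not pass. The 40 members called are 71.4% of the list, and 71.8% of all genes tested were called, so the members' count was close to the background. The split by direction depended on the scaling: in scaled values 10 members were higher in excitatory libraries (all genes, 32.4%) and 25 in inhibitory ones (all genes, 33.5%), and 62.5% of members and 65.9% of all genes were called. In both the deposited and the scaled values, 10 members were higher in excitatory libraries (all genes, 32.4%) and 14 in inhibitory ones (all genes, 26.8%). A scaled difference over 1 in size was found for 20 members, where the background was 60.6% of genes. The median difference of the members was 0.35 in deposited and -0.19 in scaled values, against 0.52 and -0.01 for all genes. The median size of the members' differences, without regard to direction, was 0.84 against 1.62 for all genes. Among the 45 members and 7317 genes with a mean value of at least 8 it was 0.66 against 0.92, and the scaled values were nearer to each other, at 0.69 against 0.76. The libraries of the labels did not overlap for 48 members (85.7%), where the background was 86.4% of genes. A difference over 3 in size was found for 9 members (16.1%), and for 34.6% of all genes.

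**Figure D1:**
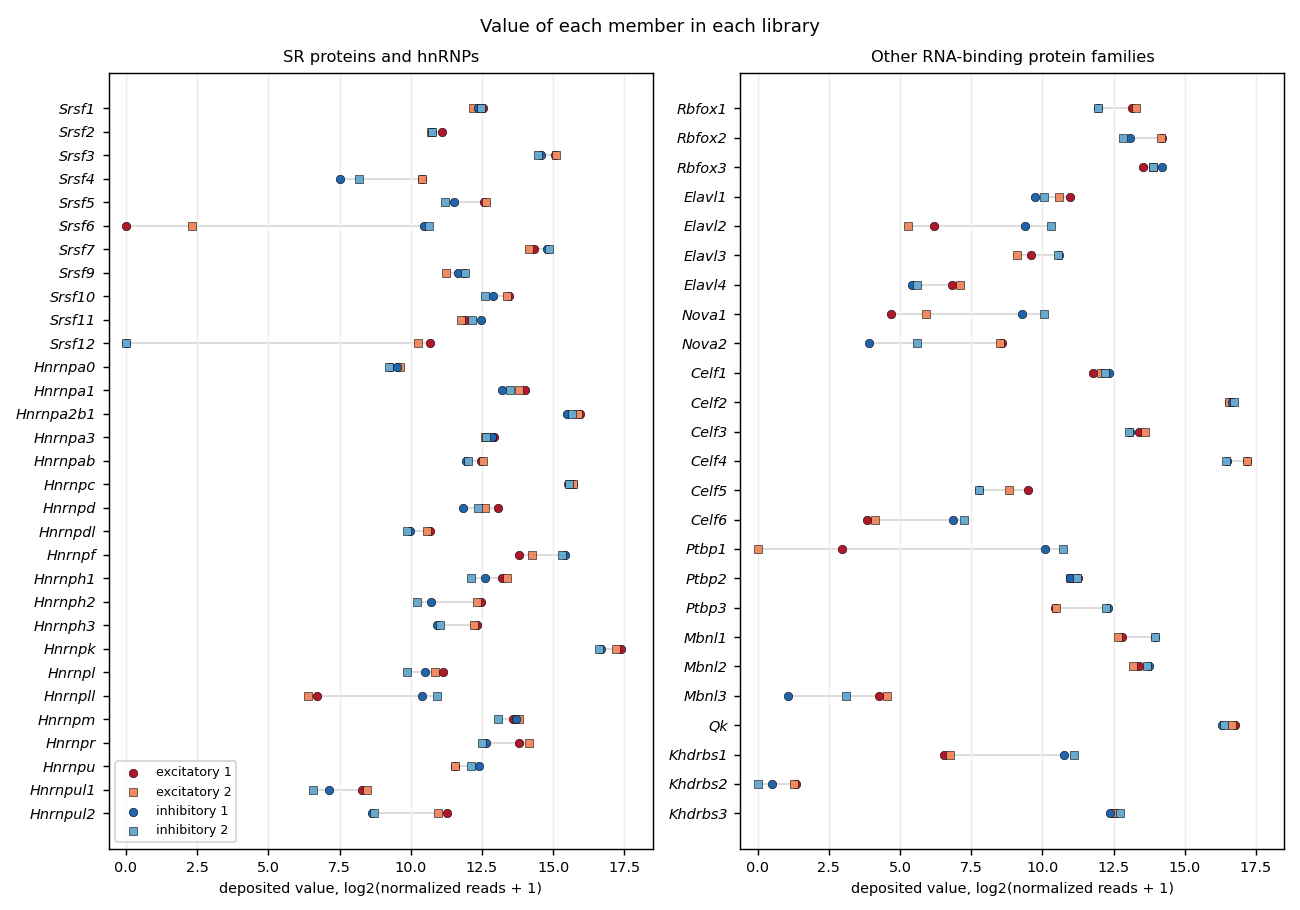
Deposited value, log2(normalized reads + 1), of each of the 56 members (vertical axis) in each library; red and orange points are the excitatory libraries, dark and light blue points the inhibitory libraries, and grey lines join the lowest and highest value. Srsf12, Srsf6 and Ptbp1 have both libraries of a label at or near 0 and the other label above 10, Khdrbs2 is near 0 in all 4, and most other members lie between 8 and 17 in every library.

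The members called in every fit were few. Only 9 members passed in the deposited values, under 3 other scalings and without any 1 of the 4 libraries, in the same direction each time, which is 16.1% of members where 30.9% of all genes did. Srsf12, Hnrnpul2, Hnrnph3 and Rbfox1 were higher in excitatory libraries, and Khdrbs1, Hnrnpll, Celf6, Ptbp3 and Mbnl1 were higher in inhibitory libraries. Between the 2 excitatory libraries the members' values differed by a median of 0.21 and between the 2 inhibitory libraries by 0.22. Between libraries of different labels the median was 0.79 to 0.94. For all genes these medians were 0.30 and 0.29 within a label and 1.66 to 1.68 between labels. Of the 40 calls, 30 were lost without at least 1 library, and the p-values without that library are given below beside the members described singly.

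SR proteins bind RNA through an RNA recognition motif and recruit the spliceosome through an arginine- and serine-rich domain. Of the 11 Srsf genes, 5 were higher in excitatory libraries (all genes, 45.0%), 2 in inhibitory libraries (all genes, 26.8%) and 4 did not pass. In scaled values the counts were 3, 5 and 3. Calls made up 63.6% of the family and 71.8% of all genes, or 72.7% and 65.9% in scaled values. Srsf12, which encodes an SR protein that can act against other SR proteins, had 10.68 and 10.24 in excitatory libraries, while both inhibitory libraries list it at 0 (limma adjusted p = 9.49e-05). It was the one member listed at 0 in both libraries of a label, a pattern found in 10.9% of all tested genes when at least 5 is asked of the other label. Srsf12 lies on chromosome 4, from 33208991 to 33233340 in mm10, on the + strand.

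Srsf6, a regulator of exon inclusion in many tissues, showed the opposite pattern, with 0 and 2.31 in excitatory against 10.46 and 10.63 in inhibitory libraries. The value of 2.31 stands for about 3.22 reads and the inhibitory values for about 1959 and 1817. Its difference passed (limma adjusted p = 6.29e-04), but not without inhibitory replicate 1 (0.061) or inhibitory replicate 2 (0.0616). Srsf6 lies on chromosome 2 from 162931528 to 162937121, and its promoter is printed above. Srsf4, a close relative of Srsf6, was higher in excitatory libraries, with 10.38 and 10.39 against 7.53 and 8.18. That difference of 2.54 (SE 0.30, limma adjusted p = 0.00165) was 2.00 in scaled values and was lost without excitatory replicate 1 (0.0733) or 2 (0.0731). The exons of Srsf4 overlap those of Gm12992 on the opposite strand over 43.0% of their length, and reads of the pair cannot be told apart without strand.

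Srsf5 was also higher in excitatory libraries, at 12.57 and 12.64 against 11.53 and 11.22, a 2.35-fold difference that was 1.61-fold in scaled values (limma adjusted p = 0.00257 and 0.0304). Its call was lost without excitatory replicate 1 (0.0694) or 2 (0.0741). Srsf7, the SR protein with the largest share of the family's level per kilobase of exon in every library, was 14.34 and 14.16 in excitatory and 14.80 and 14.84 in inhibitory libraries. The groups did not overlap, and the inhibitory libraries were 1.48-fold higher, or 2.16-fold in scaled values (limma adjusted p = 0.00579 and 5.73e-04); without inhibitory replicate 1 or 2 the call was lost (0.0859 and 0.0937). Srsf3, which regulates splicing and RNA export, was 15.06 and 15.12 against 14.58 and 14.48. Its difference of 0.55 passed (limma adjusted p = 0.00325), was 0.01 in scaled values (0.93), and was lost without excitatory replicate 1 (0.0531) or 2 (0.0598). Srsf10 was likewise called in deposited values alone (0.66 and 0.11), losing its call without excitatory replicate 1 (0.143) or 2 (0.131). Srsf1, Srsf2, Srsf9 and Srsf11 did not pass, with differences from -0.49 to 0.15; in scaled values Srsf1, Srsf9 and Srsf11 passed as higher in inhibitory libraries (-0.59, -0.78 and -1.04), while Srsf2 did not pass (-0.39).

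The hnRNPs were among the most abundant members. Of 20 genes, 11 were higher in excitatory libraries (all genes, 45.0%), 3 in inhibitory libraries (all genes, 26.8%) and 6 did not pass. In scaled values the counts were 4, 6 and 10. Calls made up 70% of the family and 71.8% of all genes, or 50% and 65.9% in scaled values. Hnrnpk, a poly(C)-binding protein, ranked first of the 56 members per kilobase of exon in every library, at 26544 and 23382 normalized reads per kilobase in excitatory and 16081 and 15491 in inhibitory libraries. Its deposited values were 17.39 and 17.21 in excitatory and 16.67 and 16.61 in inhibitory libraries. The difference of 0.66 passed (limma adjusted p = 0.00152), was 0.12 in scaled values (0.243), and was lost without inhibitory replicate 1 (0.0705) or 2 (0.0766).

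Among abundant hnRNPs, the direction of Hnrnpa2b1 and Hnrnpc turned with the scaling. Hnrnpa2b1, which also sorts RNAs for transport, was 15.95 and 15.89 against 15.50 and 15.67, a difference of 0.34 (limma adjusted p = 0.0199) and of -0.21 in scaled values (0.0471). Its deposited call was lost without excitatory replicate 1 (0.196), excitatory replicate 2 (0.158) or inhibitory replicate 1 (0.0857). Hnrnpc, which binds uridine tracts, was 15.69 and 15.70 against 15.51 and 15.55; its difference of 0.17 did not pass (limma adjusted p = 0.0639), and the scaled difference of -0.38 did (0.00753). Hnrnpf, which binds G-rich sequences, was higher in inhibitory libraries under every scaling, with 13.79 and 14.26 against 15.43 and 15.32. That is 2.54-fold, or 3.70-fold scaled (limma adjusted p = 0.00221 and 0.00162), and without inhibitory replicate 1 or 2 the call was lost (0.0994 and 0.0886). Its share of the hnRNP level per kilobase was 6.54% and 9.39% in excitatory against 24.1% and 22.6% in inhibitory libraries.

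The relatives of Hnrnpf went the other way. Hnrnph2 was 12.46 and 12.32 in excitatory and 10.70 and 10.22 in inhibitory libraries, 3.82-fold higher in excitatory and 2.62-fold in scaled values (limma adjusted p = 0.00143 and 0.00689), a call lost without excitatory replicate 1 (0.0722) or 2 (0.0664). Hnrnph3, at 12.32 and 12.21 against 10.93 and 11.03, was 2.44-fold higher, or 1.67-fold scaled, and passed without any 1 library (limma adjusted p = 0.0271 to 0.0309). Hnrnph1 was higher by 0.95 (limma adjusted p = 0.0117), a call absent in scaled values (0.41, 0.191) and lost without excitatory replicate 1 (0.146), excitatory replicate 2 (0.178) or inhibitory replicate 2 (0.0635).

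Hnrnpll, a regulator of CD45 splicing in lymphocytes, had 6.71 and 6.41 in excitatory and 10.38 and 10.91 in inhibitory libraries, a 17.0-fold difference (-4.09 on the log2 scale, SE 0.31; limma adjusted p = 3.93e-04). It passed without any 1 library, with adjusted p of 0.0245 to 0.0378, and was 24.7-fold in scaled values. Hnrnpl, its close relative, was 11.12 and 10.86 against 10.51 and 9.89 and did not pass in deposited (limma adjusted p = 0.0571) or scaled values (0.506). Ptprc, the gene of CD45 and one of the microglia markers, was at 0 in each excitatory library against 12.01 and 11.80 under the inhibitory label; its part in the Hnrnpll result was not tested.

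Hnrnpul2, which acts at DNA breaks as well as on RNA, was 11.27 and 10.97 against 8.63 and 8.71. The excitatory libraries were 5.48-fold higher, 3.76-fold scaled (limma adjusted p = 6.10e-04 and 0.00135), and the call held without any 1 library. Its relative Hnrnpul1 was higher by 1.53 (limma adjusted p = 0.0113), by 0.99 in scaled values (0.0575), and lost its call without excitatory replicate 1 (0.113), excitatory replicate 2 (0.126) or inhibitory replicate 2 (0.0669). Hnrnpu, of the same domain family, went the other way, at 11.54 and 11.55 against 12.39 and 12.12, a difference of -0.70 that was -1.25 scaled (limma adjusted p = 0.0146 and 0.00381) and lost without excitatory replicate 1 (0.121) or 2 (0.119). Hnrnpr was 13.81 and 14.16 against 12.64 and 12.49, 2.68-fold higher and 1.84-fold scaled (limma adjusted p = 0.00138 and 0.014), a call lost without inhibitory replicate 1 (0.059) or 2 (0.0658).

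Of the other hnRNPs, Hnrnpa1, Hnrnpab and Hnrnpdl were higher in excitatory libraries by 0.53 to 0.70 and did not pass in scaled values, where the difference of Hnrnpab was -0.01. Hnrnpa1 (limma adjusted p = 0.0921 to 0.214) and Hnrnpdl (0.0593 to 0.0745) lost their calls whichever library was left out, and Hnrnpab without excitatory replicate 2 (limma adjusted p = 0.0587), inhibitory replicate 1 (0.062) or inhibitory replicate 2 (0.0544). Hnrnpa0, Hnrnpa3, Hnrnpd and Hnrnpm did not pass, at 0.03 to 0.72; Hnrnpa0, Hnrnpa3 and Hnrnpm were below 0 in scaled values, and Hnrnpa3 passed there (-0.51, 0.0492). Hnrnpa3, Hnrnpa1 and Hnrnpf have 21, 9 and 6 near-identical copies in the annotation, so the reads counted for them are uncertain.

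**Figure D2:**
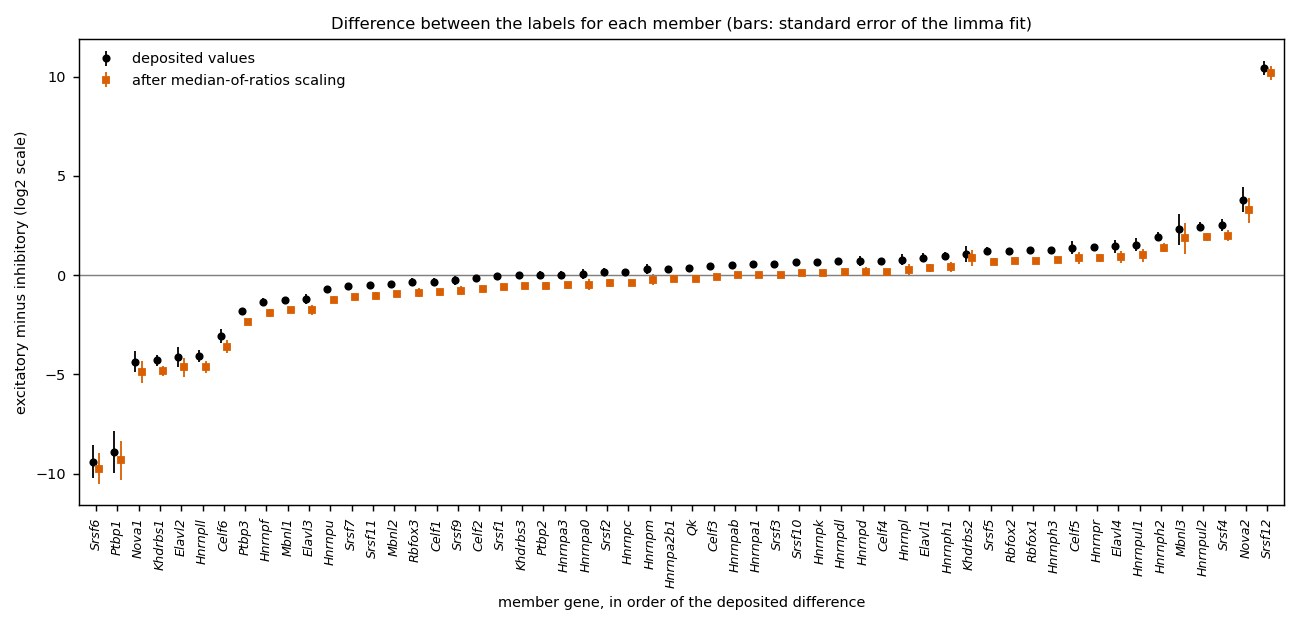
Difference between excitatory and inhibitory libraries (vertical axis, log2 scale) for each member, in order of the deposited difference; black points are deposited values, orange squares values after median-of-ratios scaling, and bars the standard error of the limma fit. Scaling moves the points down by about the same amount, so that members near 0 change sign while Srsf12, Nova2, Srsf6 and Ptbp1 keep theirs.

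Rbfox proteins bind UGCAUG next to regulated exons, and Rbfox3 is the antigen NeuN, used to mark neuronal nuclei. Rbfox1 was 13.13 and 13.29 in excitatory and 11.94 and 11.97 in inhibitory libraries, a 2.39-fold difference (1.26 on the log2 scale, SE 0.13; limma adjusted p = 9.79e-04). It was 1.64-fold in scaled values (0.00984) and passed without any 1 library (0.0203 to 0.0356). Rbfox2 was 14.22 and 14.17 against 13.10 and 12.82, 2.35-fold and 1.62-fold scaled (limma adjusted p = 0.00116 and 0.0155), a call lost without excitatory replicate 1 (0.0632) or 2 (0.0605). Within a library the difference between Rbfox1 and Rbfox2 overlapped between the labels, at -1.09 and -0.87 against -1.15 and -0.85. Rbfox3, at 13.53 and 13.88 against 14.20 and 13.88, did not pass (limma adjusted p = 0.152), with -0.34 deposited and -0.88 scaled, where it passed (0.0211). Its share of the family's level per kilobase was 31.6% and 36.3% in excitatory against 62.2% and 59.1% in inhibitory libraries. Such shares are ratios within a library and do not depend on the scaling.

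Elavl proteins, also called Hu proteins, bind AU-rich RNA; Elavl1 is found in most cells, and the others are neuronal. Elavl2 had 6.18 and 5.30 in excitatory against 9.40 and 10.31 in inhibitory libraries, a difference of -4.12 (SE 0.49, limma adjusted p = 0.00163), and its call was lost whichever library was left out (0.0504 to 0.0684). Elavl3 was 9.60 and 9.12 against 10.58 and 10.56, or 2.32-fold higher in inhibitory libraries (limma adjusted p = 0.00974), a call lost without inhibitory replicate 1 (0.121) or 2 (0.116). Both kept their direction and passed in scaled values. Elavl1 and Elavl4 lay on the other side. Elavl1 was 10.96 and 10.60 against 9.73 and 10.05, and Elavl4 6.83 and 7.11 against 5.43 and 5.61. Their differences of 0.89 and 1.45 passed (limma adjusted p = 0.0243 and 0.013), did not pass in scaled values (0.35 and 0.91; 0.213 and 0.0577), and were lost whichever library was left out (0.0891 to 0.162 for Elavl1 and 0.0552 to 0.0835 for Elavl4). Elavl1 made up 57.6% and 57.4% of the family's level per kilobase in excitatory and 20.8% and 21.2% in inhibitory libraries, and Elavl2 2.57% and 1.78% against 20.7% and 31.6%.

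The Nova pair, KH-domain proteins that bind YCAY clusters in neuronal pre-mRNAs, differed in opposite directions. Nova1 was 4.70 and 5.91 in excitatory and 9.27 and 10.05 in inhibitory libraries, and Nova2 8.60 and 8.52 against 3.91 and 5.61. The difference was -4.35 (SE 0.55) for Nova1 and, in scaled values, 3.27 for Nova2 (limma adjusted p = 0.00195 and 0.00944). Both had the same direction and a call in deposited and scaled values. Nova1 lost its call without inhibitory replicate 1 (0.0677), inhibitory replicate 2 (0.0825) or excitatory replicate 1 (0.0576), and Nova2 without excitatory replicate 1 (0.138) or 2 (0.133). Within a library Nova1 minus Nova2 was -3.90 and -2.60 in excitatory and 5.36 and 4.44 in inhibitory libraries. Nova2 thus made up 94.2% and 86.6% of the pair's level per kilobase in excitatory libraries and Nova1 97.7% and 95.5% in inhibitory libraries. Over 31.7% of their length the exons of Nova2 overlap Gm26821 on the opposite strand. An exact permutation test of 2 libraries against 2 cannot give a two-sided p below 0.333, so this and the other differences within a library are given without a test.

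**Figure D3:**
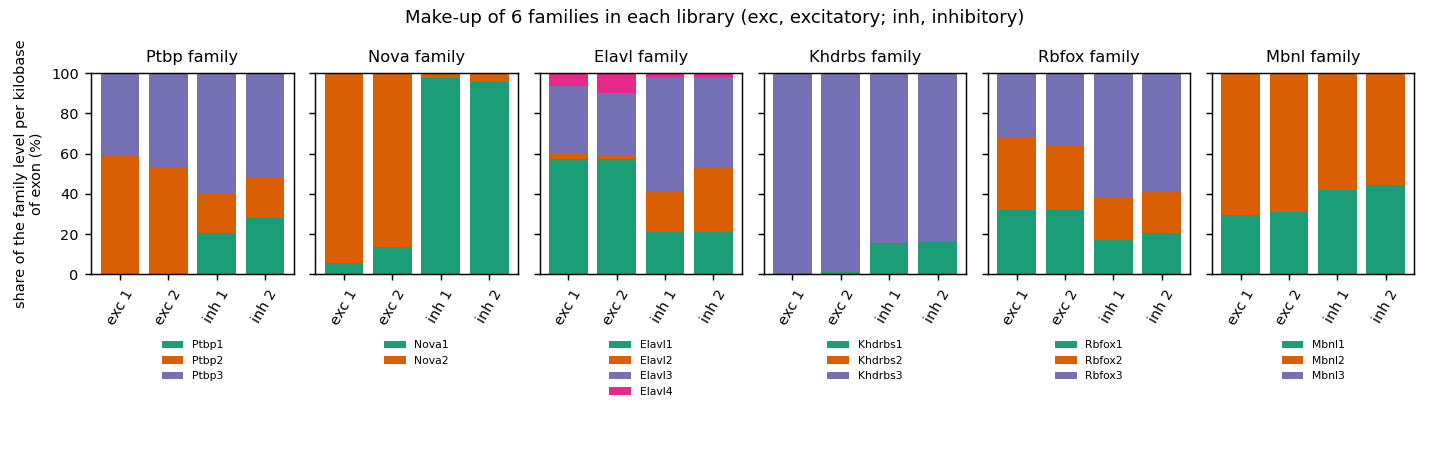
Share of each gene in its family's summed level per kilobase of exon (vertical axis, %), for 6 families in each library (exc, excitatory; inh, inhibitory). Nova2 fills most of the Nova bar in excitatory and Nova1 in inhibitory libraries, and Ptbp1 is visible in inhibitory libraries alone.

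Ptbp proteins bind pyrimidine tracts and repress exons. Ptbp1, the form of dividing and non-neuronal cells, had 2.97 and 0 in excitatory libraries, about 5.27 reads and none, against 10.09 and 10.72 in inhibitory libraries. The difference of -8.92 (SE 1.05) passed (limma adjusted p = 0.00157) and was lost without inhibitory replicate 1 (0.0848) or 2 (0.0916). Ptbp1 lies on chromosome 10 from 79854427 to 79864771. Ptbp2, the neuronal form, was level, with 11.26 and 10.96 against 10.97 and 11.22, overlapping groups and a difference of 0.01 (limma adjusted p = 0.953), or -0.53 scaled (0.0523). Ptbp3 was 10.44 and 10.47 against 12.29 and 12.25, 3.52-fold higher in inhibitory libraries (log2 -1.81, SE 0.15, limma adjusted p = 4.98e-04), 5.12-fold scaled, and passed without any 1 library (0.0184 to 0.0191). Ptbp1 was 0.317% and 0% of the family's level per kilobase in excitatory and 20.6% and 28.1% in inhibitory libraries.

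Markers of microglia and blood were mostly higher under the same label as Ptbp1 and Ptbp3, and the mural markers Pdgfrb and Rgs5 under the other. Over all genes, 45.0% were higher in excitatory and 26.8% in inhibitory libraries, or 32.4% and 33.5% in scaled values. Of 12 microglia markers, 7 were higher in inhibitory and 0 in excitatory libraries (10 and 0 in scaled values). None was at 0 in all 4 libraries. Of the 4 blood markers 3 were higher in inhibitory and 1 in excitatory libraries, and their summed level was 4.17 and 4.70 under the excitatory label against 12.01 and 11.29. The 4 tested oligodendrocyte precursor markers were split evenly, 2 in each direction, with a summed level over all 6 of 9.98 and 10.02 against 11.30 and 11.77. Of the 10 astrocyte markers 8 were higher in excitatory libraries and 0 in inhibitory ones (3 and 3 in scaled values). The 10 tested GABAergic neuron markers had 5 higher in excitatory libraries and 1 in inhibitory ones (3 and 2 in scaled values). Of the 11 endothelial and mural markers 7 were at 0 in all 4 libraries, and their summed level was higher in excitatory libraries, at 10.16 and 10.30 against 1.83 and 3.25. The part of these cells in the values of Ptbp1, Ptbp3 and the members below was not tested.

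**Figure D4:**
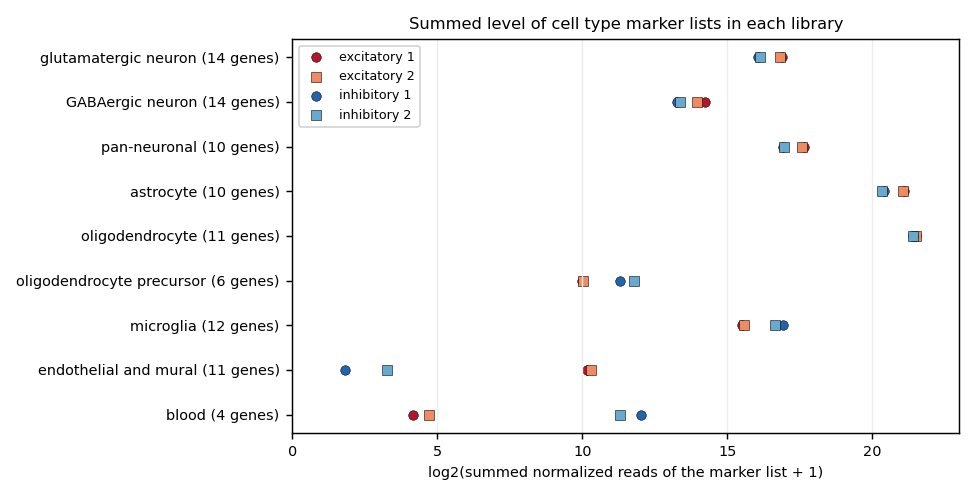
Summed level of each cell type marker list (vertical axis), as log2(summed normalized reads + 1), in each library; red and orange points are the excitatory, dark and light blue points the inhibitory libraries. The microglia, oligodendrocyte precursor and blood lists are higher in inhibitory libraries. The glutamatergic, GABAergic, pan-neuronal, astrocyte, and endothelial and mural lists are higher in excitatory libraries. The GABAergic list is thus higher under the excitatory label, at 14.24 and 13.96 against 13.25 and 13.36.

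Mbnl proteins bind YGCY motifs and promote adult splicing patterns; they are sequestered by the repeat RNA of myotonic dystrophy. Mbnl1 was 12.80 and 12.66 in excitatory and 13.94 and 13.97 in inhibitory libraries, 2.34-fold higher in inhibitory libraries (log2 -1.23, SE 0.11, limma adjusted p = 6.64e-04), 3.41-fold scaled, and passed without any 1 library (0.0195 to 0.0319). Mbnl2, the main form of the brain, was 13.40 and 13.18 against 13.76 and 13.66. Its difference of -0.42 passed (limma adjusted p = 0.0331), was -0.96 scaled, and was lost whichever library was left out (0.0603 to 0.191). Mbnl1 minus Mbnl2 within a library was -0.60 and -0.52 in excitatory against 0.18 and 0.31 in inhibitory libraries. Mbnl3 was low, at 4.28 and 4.54 against 1.07 and 3.12, about 14.2, 18.2, 1.52 and 8.82 reads. Its difference of 2.31 (limma adjusted p = 0.0469) did not pass in scaled values (0.0982) and was lost without excitatory replicate 1 (0.281), excitatory replicate 2 (0.315) or inhibitory replicate 1 (0.0567).

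Khdrbs proteins are KH-domain proteins of the STAR family; Khdrbs1 is Sam68, a target of ERK and of tyrosine kinases, and Khdrbs2 and Khdrbs3 are its neuronal relatives, which regulate neurexin splicing. Khdrbs1 was 6.54 and 6.77 in excitatory against 10.77 and 11.13 in inhibitory libraries, a 19.6-fold difference (-4.29 on the log2 scale, SE 0.26; limma adjusted p = 2.27e-04). It was 28.4-fold in scaled values and passed without any 1 library (0.0213 to 0.0268). Khdrbs3 was level and overlapping, at 12.57 and 12.53 against 12.39 and 12.71 (limma adjusted p = 0.981), and in scaled values the difference of -0.55 passed (0.0244). Khdrbs2 was at the limit of detection, at 1.36, 1.29, 0.50 and 0, which stand for about 1.21, 1.18, 0.573 and 0 reads, and did not pass (limma adjusted p = 0.062). Its 4 values are the same as those of B230208H11Rik. Khdrbs3 was 99.1% and 99.0% of the family's level per kilobase in excitatory and 84.3% and 84.0% in inhibitory libraries. Qk, a STAR protein of glia that shapes myelin RNAs, was 16.75 and 16.67 against 16.30 and 16.36. Its difference of 0.37 passed (limma adjusted p = 0.00418) and turned to -0.17 in scaled values, where it passed as well (0.0393); the deposited call was lost whichever library was left out (0.0569 to 0.073). Of 11 oligodendrocyte markers 5 were higher in excitatory and 1 in inhibitory libraries (all genes, 45.0% and 26.8%). Their summed level was 21.52 and 21.49 against 21.39 and 21.39. Mbp, whose value is the same in all 4 libraries, made up most of that sum. Without Mbp, a choice made after seeing the data, the other 10 markers together took 0.462% and 0.397% of the library total against 0.199% and 0.193%. The part of these markers in the level of Qk was not tested.

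Celf proteins bind GU-rich RNA, and Celf3 to Celf6 are mainly neuronal. Celf4, which lies on chromosome 18, was 17.18 in both excitatory libraries and 16.47 and 16.43 in inhibitory libraries, 1.66-fold higher (log2 0.73, SE 0.05, limma adjusted p = 2.44e-04), and passed without any 1 library (0.017 to 0.0283). In scaled values it was 1.14-fold and did not pass (0.062). It was the most abundant Celf gene per kilobase in every library, with 73.5% and 72.7% of the family against 62.8% and 61.9%. Celf2 was 16.56 and 16.54 against 16.67 and 16.73; its difference of -0.15 did not pass (limma adjusted p = 0.051), and in scaled values -0.69 passed (5.07e-04). Celf1 was 11.79 and 12.07 against 12.32 and 12.19, and likewise passed in scaled values alone (-0.33 and -0.87; limma adjusted p = 0.137 and 0.0141). Celf1 minus Celf2 overlapped between the labels.

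Of the lower Celf genes, Celf6 had 3.84 and 4.11 in excitatory and 6.88 and 7.24 in inhibitory libraries, about 10.3 and 13.2 against 162 and 172 reads. Its difference of -3.08 (SE 0.35, limma adjusted p = 0.0014) was -3.60 scaled and passed without any 1 library (0.0265 to 0.0409). Celf5 was 9.50 and 8.83 against 7.77 and 7.79, 2.62-fold higher in excitatory libraries (limma adjusted p = 0.0157), with 0.85 and no call in scaled values (0.0658); it lost its call without inhibitory replicate 1 (0.155), inhibitory replicate 2 (0.15) or excitatory replicate 1 (0.0622). Celf3 was 13.39 and 13.59 against 13.06 and 13.03. The difference of 0.44 passed (limma adjusted p = 0.0249), was -0.10 scaled (0.568), and was lost without inhibitory replicate 1 (0.13), inhibitory replicate 2 (0.14) or excitatory replicate 2 (0.0649).

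The partners of these proteins were compared with 3 lists. Of 67 tested core spliceosome genes, 38 were higher in excitatory and 8 in inhibitory libraries (21 and 18 in scaled values), with a median difference of 0.72 against 0.52 for all genes. Calls made up 68.7% of the list and 71.8% of all genes, or 58.2% and 65.9% in scaled values. The splicing helicase gene Dhx38 (11.64 and 11.33 against 6.59 and 6.53) and the Sm protein gene Snrpn (18.39 and 18.37 against 17.56 and 17.57) were higher in excitatory libraries, as was Puf60 (15.03 and 14.90 against 13.34 and 13.36). Sart1 had 9.87 and 10.39, against 0 in each inhibitory library. In the other direction, Usp39 differed by -7.88, with 2.97 and 2.89 in excitatory ones. Prpf3, listed at 0 in both excitatory libraries, had 7.88 and 7.26 under the inhibitory label. Sf3b3 (-3.61) and Cdc5l (-2.43) were also higher in inhibitory libraries, calls that were lost without at least 1 library (limma adjusted p up to 0.0546 and 0.0995). Ddx23 and Dhx16, helicases that splicing needs in every cell, were listed at 0 in all 4 libraries, so a listed 0 is not read as absence of the RNA.

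SR proteins are switched by phosphorylation in their arginine- and serine-rich domain. Of 35 tested SR protein kinases, their phosphatase and SR-related proteins, 14 were higher in excitatory and 7 in inhibitory libraries (10 and 10 in scaled values), and the median difference was 0.31 against 0.52 for all genes. The 21 calls in deposited and 20 in scaled values (57.1%) compare with 71.8% and 65.9% of all genes. The kinase genes Srpk1 (11.45 and 11.28) and Clk3 (11.59 and 11.86), and Scaf4 (10.45 and 10.37), had a listed 0 in each inhibitory library, and Scaf11 was higher by 2.63. Another kinase gene, Clk1, went the other way, at 9.10 and 9.03 against 12.85 and 12.60 (-3.66, SE 0.18, limma adjusted p = 1.33e-04). So did Pnn (-4.25), the phosphatase gene Ppm1g (-7.41) and Tra2a, at 0 in each excitatory library against 9.07 and 9.03.

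Among 58 tested other RNA-binding proteins, 22 were higher in excitatory and 14 in inhibitory libraries (18 and 22 in scaled values), and the median difference was 0.30 against 0.52 for all genes. The share called was 62.1%, or 69.0% scaled, beside 71.8% and 65.9% of all genes. Ewsr1 was higher by 1.84 and Pcbp2 by 1.70 in excitatory libraries, where Larp7 had 7.83 and 8.54 against 0 in both inhibitory libraries and Rbmx 11.15 and 11.81 against 1.08 and 0. Fmr1, the gene silenced in fragile X syndrome, had 2.39 and 2.89 in excitatory against 9.99 and 9.78 in inhibitory libraries (limma adjusted p = 1.26e-04). Each excitatory library listed Zfp36 and Rbm24 at 0, against 10.60 and 10.23 for Zfp36 and 8.94 and 8.38 for Rbm24. Ilf2 was higher in inhibitory libraries (-2.18), a call lost without at least 1 library (limma adjusted p up to 0.101).

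As a share of all normalized reads in a library, which no scaling changes, the 56 members together took 1.16% and 1.16% in excitatory and 1.42% and 1.38% in inhibitory libraries. The hnRNPs took 0.496% and 0.490% against 0.571% and 0.552%, and the SR proteins 0.113% and 0.111% against 0.152% and 0.145%. These shares were higher in both inhibitory libraries. Without Hnrnpf, left out after seeing the data, the hnRNPs took 0.479% and 0.465% against 0.489% and 0.477%, and the labels overlapped. Without Srsf7 the SR proteins took 0.0873% and 0.0871% against 0.0985% and 0.0907%. The Ptbp family was also higher in both inhibitory libraries, at 0.00479% and 0.00440% against 0.0152% and 0.0164%. So was the Mbnl family, at 0.0224% and 0.0204% against 0.0553% and 0.0535%. The same held for the Celf, Elavl, Nova, Khdrbs and Qk families. The Rbfox family overlapped between the labels, at 0.0497% and 0.0561% against 0.0589% and 0.0485%. In the annotation, GENCODE M21, the members have a median of 8 transcripts, against 5 for 11841 tested protein-coding genes. With no adjustment for this, 28 of the 56 members have a transcript marked for nonsense-mediated decay, against 27.3% of those genes. Of the 11 SR protein genes, 9 have one. Many SR proteins are known to limit their own RNA through such transcripts, which the gene values used here cannot show.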

How the data were processed

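The authors deposited 1 table per library with a log2 value for each of 24421 genes; from the values, these are log2(normalized reads + 1). The tools listed per the submitters' processing notes are TopHat and edgeR, with mm10 as the build; the sources used here do not give versions, scaling, counting tool or annotation. The low linear values fall in bands 1.29, 1.23, 0.72 and 0.874 apart, which gave the estimated reads; intervals for counting error were not computed.

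In R 4.3.3, limma 3.58.1 was fitted with a mean-variance trend to the 13619 genes that reached 1 in 2 or more libraries, with Benjamini-Hochberg adjustment over all of them and a threshold of 0.05. The files hold no counts, so no count model was run. Genes were located in GENCODE M21, on the same build, and levels per kilobase use the summed exon length there. Near copies are annotated genes with at least 95% identity over at least 20% of a member's longest protein-coding transcript (blastn 2.17.0). Alternatives were 3 scalings, a pseudocount of 16, no filter and a filter at 5, no trend, the replicate number as a block, and leaving out each library. On simulated data with the spreads of the fit, the comparison of excitatory with inhibitory libraries over 13619 genes recovered 2%, 34%, 86% and 100% of 50 genes each changed by 0.5, 1, 2 and 4, with 14 false calls.

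Named were all members of the 8 smaller families, and of the SR proteins and hnRNPs the 5 highest, those at 0 under a label and up to 8 called in each direction with the largest difference. The other SR proteins and hnRNPs are also accounted for, and each further list is given by up to 4 genes a direction with the smallest p. The microglia gene Ptprc, and Ddx23 and Dhx16, are outside that rule and were chosen after their values were seen. The members and lists were chosen with earlier results of these data known.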

Additional observations from a re-analysis of the deposited data

How the results depend on the processing

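Leaving out 1 library gave 19 to 21 called members in place of 40, with 8 to 15 higher in excitatory and 6 to 11 in inhibitory libraries; a lone library was assumed to vary like the others. The range was 22 to 25 in place of 46 for the core spliceosome (18 to 20 and 3 to 5 by direction), 13 to 17 in place of 21 for the SR protein kinases and SR-related genes (8 to 11 and 5 to 6), and 19 to 24 in place of 36 for the other RNA-binding proteins (13 to 18 and 5 to 8). Median-of-ratios, upper-quartile and equal-total scaling gave 10, 12 and 11 members higher in excitatory libraries in place of 26, and 25, 23 and 24 higher in inhibitory libraries in place of 14. For the core spliceosome these were 21, 22 and 21 in place of 38, and 18, 16 and 18 in place of 8, and for the other RNA-binding proteins higher in inhibitory libraries 22, 23 and 23 in place of 14. Over all genes the median difference was 0.52 in deposited values and -0.01, 0.01 and -0.01 under these scalings. Why the deposited values differed between the labels was not tested. Leaving out any 1 library also lowered the calls over all genes. A fall was thus not confined to the members or lists. In proportion it was smaller over all genes than in the members or the core spliceosome list. The 2 members that did not reach 5 in 2 libraries have no value under the stricter filter.

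Differences that turned below 0 under median-of-ratios, upper-quartile and equal-total scaling were those of Celf3 (-0.10, -0.081 and -0.10), Hnrnpa0 (-0.48, -0.46 and -0.48), Hnrnpa2b1 (-0.21, -0.19 and -0.21), Hnrnpa3 (-0.51, -0.50 and -0.52), Hnrnpc (-0.38, -0.36 and -0.38), Hnrnpm (-0.23, -0.22 and -0.24), Ptbp2 (-0.53, -0.51 and -0.53), Qk (-0.17, -0.15 and -0.18) and Srsf2 (-0.39, -0.37 and -0.39). That of Hnrnpab turned under median-of-ratios and equal-total scaling (-0.0081 and -0.014). Without 1 library, the differences of Hnrnpa0 (-0.10 to 0.23), Hnrnpa3 (-0.12 to 0.17), Khdrbs3 (-0.17 to 0.16), Ptbp2 (-0.13 to 0.16), Srsf1 (-0.23 to 0.14), Srsf2 (-0.026 to 0.33) and Srsf9 (-0.55 to 0.087) took both signs; none of these had passed.

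Deviations of same-numbered libraries from their group means correlated at -0.0019 over 13619 genes. That gives no sign of pairing by replicate number but cannot exclude it, and the labels do not tell. With the replicate number as a block, 42 members were called, 28 higher in excitatory and 14 in inhibitory libraries. Over all 13619 genes, 9782 were called with the block and 9777 without it. Few changes of 1 or less were recovered on simulated data with 2 libraries a label, where most genes were unchanged. In the data 71.8% of genes were called, so that recovery does not give the sensitivity here. The values of Khdrbs2 stand for at most about 1.21 reads.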

Other observations

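Some members share sequence or exons with other genes, which limits what their values count. Of the 56 members, 14 have a near-identical copy or an overlapping gene that covers part of their transcript, and the exons of 24 overlap those of another annotated gene, 19 of them on the opposite strand. Those 14 are Hnrnpa1, Hnrnpa3, Hnrnpab, Hnrnpc, Hnrnpf, Hnrnph2, Hnrnpk, Hnrnpm, Nova2, Ptbp1, Srsf2, Srsf3, Srsf4 and Srsf5. Hnrnpab overlaps Phykpl over 29.1% of its exon length and Srsf2 overlaps Mettl23 over 15.6%.

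A listed 0 in both libraries of a label with at least 5 in both libraries of the other was found for 1 of 56 members (1.79%), for 2 of 70 core spliceosome genes (2.86%), for 4 of 36 SR protein kinases and SR-related genes (11.1%) and for 3 of 63 other RNA-binding proteins (4.76%). The shares of the 3 further lists count every listed gene, of which 67, 35 and 58 were tested. Among all tested genes the pattern was found for 10.9%, with 754 at 0 in the inhibitory and 731 at 0 in the excitatory libraries.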
